A study of Homo sapiens with 9 samples.

Results

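The transcripts of 9 genes of the hemidesmosome and of laminin-332 adhesion, out of 58395 genes in each table, were followed in HCT116, a human cell line established from a colon carcinoma. The 9 genes were ITGB4, ITGA6, ITGA3, LAMA3, LAMB3, PLEC, DST, COL17A1 and CD151. They were chosen by their role in this adhesion with their expected counts and TPM over the groups of these libraries already known, so that their differences between groups are given as a description. Whether a fit called them is stated, but nothing is inferred from those calls.

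Total RNA of 9 libraries was sequenced, and every library came from cells carrying shSTBD1, a short hairpin RNA against STBD1, which encodes a glycogen-binding receptor of selective autophagy. The 3 groups of 3 biological replicates were plvx neo (the empty vector), STBD1 WT (hairpin-resistant wild-type STBD1) and STBD1 W203C (the same construct with a cysteine in place of a tryptophan in the motif that binds GABARAPL1). All 3 were stable lines made by lentiviral transduction and drug selection, and whether a line is a clone or a pool is not given in the sources used here. No library without the hairpin was compared, so each difference is between 2 lines that both carry it.

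The sample labels name the STBD1 WT and STBD1 W203C libraries the other way round from the names of the deposited tables and from the study's own supplementary expression table. The labels were followed, and each group is called by its label. If the names of the tables hold instead, every direction between the constructs turns around and their comparisons with plvx neo change places.

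Hemidesmosomes anchor epithelial cells to the basement membrane. Integrin α6β4, encoded by ITGA6 and ITGB4, binds laminin-332 outside the cell, and its long β4 tail binds plectin, encoded by PLEC, which links it to keratin filaments. The type I hemidesmosomes of stratified epithelia also hold the BPAG1e product of DST and the type XVII collagen encoded by COL17A1, whereas the type II structures of simple epithelia such as the gut are known for α6β4 and plectin without them. Laminin-332 is a trimer that holds the chains encoded by LAMA3 and LAMB3, and it is also bound by integrin α3β1, whose α chain is encoded by ITGA3. CD151 is a tetraspanin that associates laterally with both laminin-binding integrins.

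The libraries held between 16.88 M and 23.28 M expected counts, and pairs of replicates differed by more than counting noise (chi-square per gene between 2.118 and 3.87). The summed TPM (transcripts scaled by their length and by the library) of STBD1 and its read-through transcript FAM47E-STBD1 lay between 4.12 and 5.62 with plvx neo, between 52.28 and 57.04 in libraries labelled STBD1 WT and between 43.49 and 47.93 in those labelled STBD1 W203C. Transcripts of both constructs were thus present, and these levels do not tell the labels apart. Of 7 epithelial markers, 6 reached 1 TPM in at least 1 library. VIL1 was the exception. KRT8, the most abundant of the 7, lay between 1398.6 and 1958.2 TPM over the 9 libraries, and CDX2 between 5.16 and 9.35 TPM. The summed level of these 7 was between 3798 and 3898 TPM with plvx neo, between 3393 and 3528 in libraries labelled STBD1 WT and between 3177 and 3437 in those labelled STBD1 W203C, and its part in the differences below was not tested. Of the stratified-epithelium markers, KRT5, KRT14, KRT1, TP63 and DSG3 stayed at or below 0.45 TPM in all libraries, and KRT10 lay between 53.7 and 64.65 TPM. Among 13 markers of fibroblasts, endothelium and immune cells, 11 stayed under 1 TPM, while COL1A1 lay between 12.61 and 21.62 TPM and CD68 between 1.33 and 6.47 TPM. The summed immune markers, mostly CD68, were at 2.21 to 2.5 TPM with plvx neo, 4.28 to 7.27 in libraries labelled STBD1 WT and 1.9 to 2.12 in those labelled STBD1 W203C, while PTPRC and CD3E stayed at or below 0.06 TPM. The part of this difference in the results below was not tested. In bulk RNA of this kind, fewer cells that express a gene and less RNA in each cell cannot be told apart.

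Promoter sequences are shown for the 3 genes of the list with the largest difference between libraries labelled STBD1 WT and plvx neo, which are COL17A1, LAMB3 and LAMA3. From the RefSeq table (build GRCh38.p14), 10 promoter windows were taken for 5 of the 9 genes (ITGA6, LAMA3, LAMB3, DST and COL17A1). PLEC was left out of this selection, so its promoter was not searched and the counts below do not cover it. The 250 bases upstream of the start are printed 5′ to 3′ on the gene's strand, with the palindromic AP-1 motif TGANTCA, which reads the same on both strands, in capitals.
LAMA3, chr18:23872770-23873019, plus strand: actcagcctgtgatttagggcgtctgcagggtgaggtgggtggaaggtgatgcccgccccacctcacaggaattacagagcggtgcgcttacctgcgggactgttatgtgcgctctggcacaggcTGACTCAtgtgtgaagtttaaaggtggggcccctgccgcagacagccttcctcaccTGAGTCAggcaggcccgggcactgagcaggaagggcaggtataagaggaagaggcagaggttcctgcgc
LAMB3, chr1:209651375-209651624, minus strand: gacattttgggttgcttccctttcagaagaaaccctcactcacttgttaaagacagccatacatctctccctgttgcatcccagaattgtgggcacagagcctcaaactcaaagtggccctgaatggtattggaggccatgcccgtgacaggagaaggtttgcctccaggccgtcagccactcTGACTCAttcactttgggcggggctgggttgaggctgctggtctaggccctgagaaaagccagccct
COL17A1, chr10:104085881-104086130, minus strand: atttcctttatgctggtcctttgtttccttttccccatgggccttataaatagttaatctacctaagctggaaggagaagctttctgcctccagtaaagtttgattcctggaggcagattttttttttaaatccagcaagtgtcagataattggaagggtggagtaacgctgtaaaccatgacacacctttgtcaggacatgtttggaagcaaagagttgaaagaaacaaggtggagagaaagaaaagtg
The LAMA3 window held the motif at both 125 and 69 bases upstream of the start, and the LAMB3 window held it 67 bases upstream. The other 2 LAMB3 windows, the COL17A1 window and the windows of ITGA6 and DST did not hold these letters, so 2 of the 10 windows had a match. Of all 35116 windows in the table, 6.573% held the motif. The GC box GGGCGG, searched on both strands, was in 6 of the 10 windows and in 42.64% of all windows. These matches describe the letters only.

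The LAMA3 window belongs to the internal start of the short α3A transcript (5618 bases), which begins at chr18:23873020 inside a gene that extends over chr18:23689453-23956222. The long α3B form spans 10651 bases. The mean transcript length that RSEM assigned to LAMA3 lay between 4727 and 6122 bases over the 9 libraries, nearer to the length of the short form than to that of the long form in each of them. For DST, whose longest counted transcript has 22431 bases, the mean length lay between 4932 and 6041 bases. This was below the 8971 bases of the transcript that starts at the most downstream of its 3 RefSeq windows. Both means also cover short annotated transcripts (down to 462 bases for LAMA3 and 442 for DST), so they do not show which form was used.

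Per length, the 9 genes covered a wide range of levels. With plvx neo, CD151 was highest at 245 ± 10.3 TPM (SD, n = 3), followed by ITGA3 at 106 ± 3.2, PLEC at 79.4 ± 0.19 and ITGB4 at 56.4 ± 4.6 TPM. ITGA6 at 35.7 ± 5.1 and DST at 33.5 ± 1.4 TPM overlapped between libraries. LAMB3 at 17.4 ± 1.8, LAMA3 at 2.99 ± 0.18 and COL17A1 at 0.81 ± 0.15 TPM came lowest, in that order and without overlap.

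**Figure D1:**
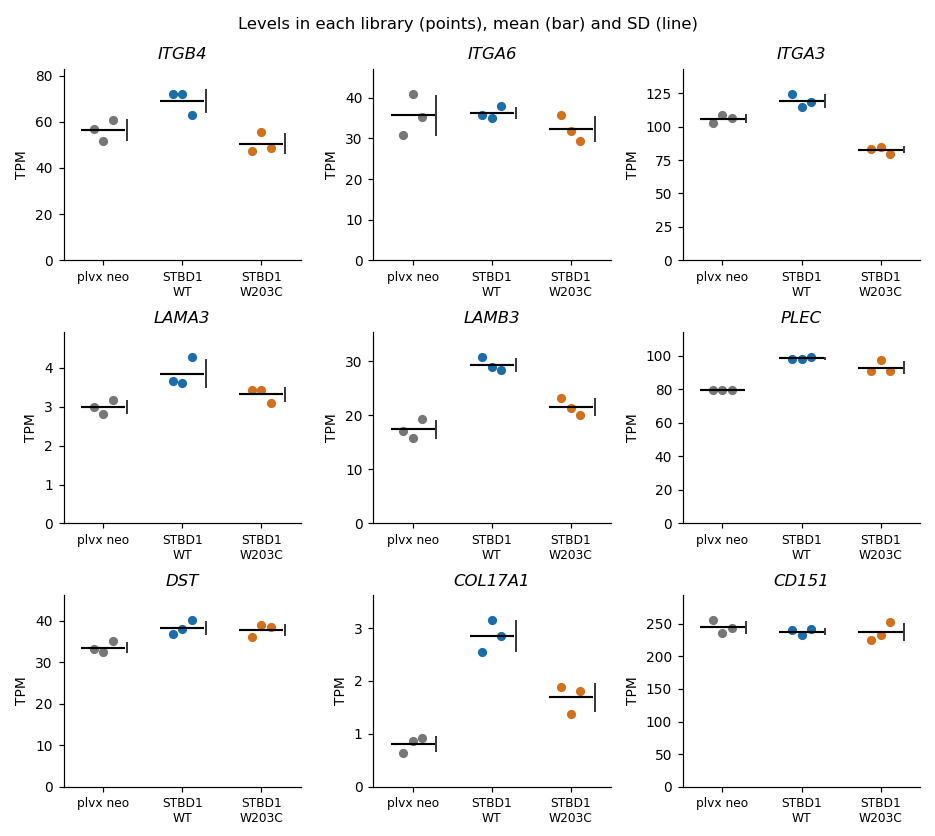
TPM of the 9 genes in each library (points; the bar is the mean and the line the SD of 3 libraries), by group. LAMB3 and COL17A1 were lowest with plvx neo, highest in libraries labelled STBD1 WT and between them in those labelled STBD1 W203C, whereas ITGA3 was lowest in libraries labelled STBD1 W203C and CD151 overlapped between all groups.

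The laminin-binding integrin chains were lowest in libraries labelled STBD1 W203C. ITGB4 (ENSG00000132470, chr17:75721328-75757818, plus strand), the β4 chain found only in α6β4, was at 57.04, 51.49 and 60.66 TPM with plvx neo, at 72.21, 71.86 and 62.94 in libraries labelled STBD1 WT, and at 47.38, 55.59 and 48.5 in those labelled STBD1 W203C. The libraries labelled STBD1 WT were above all others, while the other groups overlapped on this scale. On CPM, counts scaled to the size of the library without the estimated transcript length, the plvx neo libraries were between 217.8 and 228.9 and those labelled STBD1 W203C between 180.5 and 188.1 CPM, without overlap. The log2 fold change of the counts was 0.31 (SE 0.037) for STBD1 WT against plvx neo, −0.58 (SE 0.037) for STBD1 W203C against STBD1 WT and −0.27 (SE 0.038) for STBD1 W203C against plvx neo. ITGB4 shared the positions of GALK1, on the opposite strand, but no exon base in GENCODE 44. For GALK1 the corresponding values were 0.21 (SE 0.052), −0.36 (SE 0.061) and −0.16 (SE 0.064), the last not called. Any part of GALK1 reads in the counts of ITGB4 was not tested.

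ITGA3 (ENSG00000005884, chr17:50055968-50090481, plus strand), the α3 chain that pairs with β1, showed the same order of the groups. It was at 102.4, 108.7 and 106.9 TPM with plvx neo, at 124.8, 115.1 and 118.2 in libraries labelled STBD1 WT, and at 83.45, 84.68 and 79.67 in those labelled STBD1 W203C. None of the 3 groups overlapped. The log2 fold changes were 0.14 (SE 0.038) for STBD1 WT against plvx neo, −0.52 (SE 0.040) between the constructs and −0.38 (SE 0.037) for STBD1 W203C against plvx neo. The first was no longer called without STBD1 WT replicate 1, where it was 0.10.

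ITGA6 (ENSG00000091409, chr2:172427354-172506459, plus strand), the α6 partner of ITGB4, did not follow it in the libraries labelled STBD1 WT. Its TPM was 30.91, 41.08 and 35.18 with plvx neo, 35.73, 35.05 and 37.95 in libraries labelled STBD1 WT, and 35.85, 31.86 and 29.38 in those labelled STBD1 W203C, and all groups overlapped. In CPM the libraries labelled STBD1 W203C, between 112.5 and 117.6, were below the other 6, which were between 131 and 144.9. The log2 fold changes were −0.01 (SE 0.044) for STBD1 WT against plvx neo, −0.24 (SE 0.040) between the constructs and −0.26 (SE 0.045) for STBD1 W203C against plvx neo. The ratio of ITGB4 to ITGA6 in TPM was 1.61 ± 0.31 with plvx neo, 1.91 ± 0.22 in libraries labelled STBD1 WT and 1.57 ± 0.22 in those labelled STBD1 W203C, with overlapping groups.

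ITGB1, the β chain that ITGA3 needs, was followed as a related gene and took another course. It was at 216 ± 6.7 TPM with plvx neo, 192 ± 8.9 in libraries labelled STBD1 WT and 199 ± 5.0 in those labelled STBD1 W203C. It was lower than with plvx neo in both constructs (log2 fold change −0.16, SE 0.035, adjusted p = 0.00197, and −0.17, SE 0.035, adjusted p = 0.00352, edgeR quasi-likelihood test), with no difference called between the constructs (−0.004, SE 0.038, adjusted p = 0.951).

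LAMB3 and LAMA3, which encode chains of laminin-332, were highest in libraries labelled STBD1 WT. LAMB3 (ENSG00000196878, chr1:209614870-209652425, minus strand), the β3 chain, was at 17.1, 15.84 and 19.31 TPM with plvx neo, at 30.84, 28.96 and 28.32 in libraries labelled STBD1 WT, and at 23.26, 21.28 and 20.08 in those labelled STBD1 W203C. The 3 groups were apart, with the libraries labelled STBD1 W203C between the others. The log2 fold changes were 0.77 (SE 0.055) for STBD1 WT against plvx neo, −0.57 (SE 0.043) between the constructs and 0.19 (SE 0.058) for STBD1 W203C against plvx neo. The last was not called with all libraries but was called without plvx neo replicate 1, where it was 0.25, and in the fits with no filter (0.19), all 9 libraries (0.19), the replicate block (0.19) and the GC and length correction (0.18).

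LAMA3 (ENSG00000053747), the α3 chain that carries the integrin-binding end of the trimer, was far less abundant. Its TPM was 2.98, 2.82 and 3.17 with plvx neo, 3.65, 3.62 and 4.28 in libraries labelled STBD1 WT, and 3.43, 3.44 and 3.1 in those labelled STBD1 W203C. The libraries labelled STBD1 WT were above all others, and the other groups overlapped. In CPM these did not overlap, with 13.2 to 15.5 for plvx neo and 16.1 to 17.7 in libraries labelled STBD1 W203C. The log2 fold changes were 0.50 (SE 0.085) for STBD1 WT against plvx neo, −0.28 (SE 0.081) between the constructs and 0.22 (SE 0.090) for STBD1 W203C against plvx neo. The difference between the constructs lost its call with DESeq2 (−0.27), without STBD1 WT replicate 3 (−0.22) and without STBD1 W203C replicate 2 (−0.25).

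LAMB3 and LAMA3 were not equally abundant, and the ratio of LAMB3 to LAMA3 in TPM was 5.82 ± 0.25 with plvx neo, 7.69 ± 0.96 in libraries labelled STBD1 WT and 6.48 ± 0.30 in those labelled STBD1 W203C. These 3 groups of ratios overlapped only between the constructs.

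The plakins tie the hemidesmosome to keratin. In the edgeR fits with all libraries of a pair and no correction, PLEC was the one called higher with both constructs than with plvx neo. PLEC (ENSG00000178209, chr8:143915153-143976734, minus strand) was at 79.57, 79.2 and 79.33 TPM with plvx neo, at 97.69, 98.22 and 99.22 in libraries labelled STBD1 WT, and at 90.59, 97.32 and 90.62 in those labelled STBD1 W203C. The 3 groups did not overlap, although 1 library labelled STBD1 W203C came close to those labelled STBD1 WT. The log2 fold changes were 0.32 (SE 0.033) for STBD1 WT against plvx neo and 0.21 (SE 0.032) for STBD1 W203C against plvx neo. Between the constructs it was −0.11 (SE 0.035), a difference that lost its call with the replicate block (−0.11) and on leaving out any library but STBD1 W203C replicate 3 (between −0.11 and −0.09).

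DST (ENSG00000151914, chr6:56457987-56954830, minus strand) encodes BPAG1e and its longer relatives, which the gene-level tables do not separate. Its TPM was 33.12, 32.32 and 35.06 with plvx neo, 36.76, 37.86 and 40.12 in libraries labelled STBD1 WT, and 36.14, 38.84 and 38.5 in those labelled STBD1 W203C. Both construct groups were above plvx neo in TPM and overlapped each other, while in CPM the libraries labelled STBD1 W203C (170.4 to 184.8) overlapped those with plvx neo (152.9 to 175.2). The log2 fold change was 0.29 (SE 0.049) for STBD1 WT against plvx neo, −0.16 (SE 0.043) between the constructs and 0.13 (SE 0.047), not called, for STBD1 W203C against plvx neo. The second was no longer called without STBD1 WT replicate 3 (−0.12). The third was called without plvx neo replicate 2 (0.19) and with the GC and length correction, alone (0.14) or with the replicate block (0.14).

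COL17A1 (ENSG00000065618, chr10:104031286-104085880, minus strand), the transmembrane collagen of type I hemidesmosomes, had the largest fold difference of the 9 genes and the lowest level. It was at 0.64, 0.87 and 0.92 TPM with plvx neo, at 2.54, 3.15 and 2.85 in libraries labelled STBD1 WT, and at 1.88, 1.37 and 1.81 in those labelled STBD1 W203C. The 3 groups were apart. These levels rested on 61, 74 and 61 expected counts with plvx neo, on 168, 259 and 161 in libraries labelled STBD1 WT and on 111, 99 and 107 in those labelled STBD1 W203C. The log2 fold change was 1.61 (SE 0.14) for STBD1 WT against plvx neo, −0.79 (SE 0.12) between the constructs and 0.82 (SE 0.16) for STBD1 W203C against plvx neo.

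CD151 (ENSG00000177697, chr11:832887-839831, plus strand), the tetraspanin partner of the laminin-binding integrins, did not move with them. Its TPM was 255.7, 235.4 and 243.3 with plvx neo, 239.8, 232.3 and 241.8 in libraries labelled STBD1 WT, and 225.5, 233.2 and 252.9 in those labelled STBD1 W203C, with all groups overlapping. In CPM the libraries labelled STBD1 WT (217.6 to 228.5) were below those with plvx neo (231.5 to 257.6). Those labelled STBD1 W203C (219.4 to 238.6) overlapped both. The log2 fold change was −0.11 (SE 0.041) for STBD1 WT against plvx neo, 0.02 (SE 0.039) between the constructs and −0.10 (SE 0.042) for STBD1 W203C against plvx neo. The first lost its call on leaving out any library but plvx neo replicate 2 (between −0.13 and −0.07). The last was not called as counted but was called with the GC and length correction (−0.13). CD151 shares 257 of its 3894 annotated exon bases with POLR2L on the opposite strand, and whether the counting used strand is not given in the sources used here. For POLR2L the corresponding values were −0.05 (SE 0.042), 0.10 (SE 0.045) and 0.05 (SE 0.048).

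**Figure D2:**
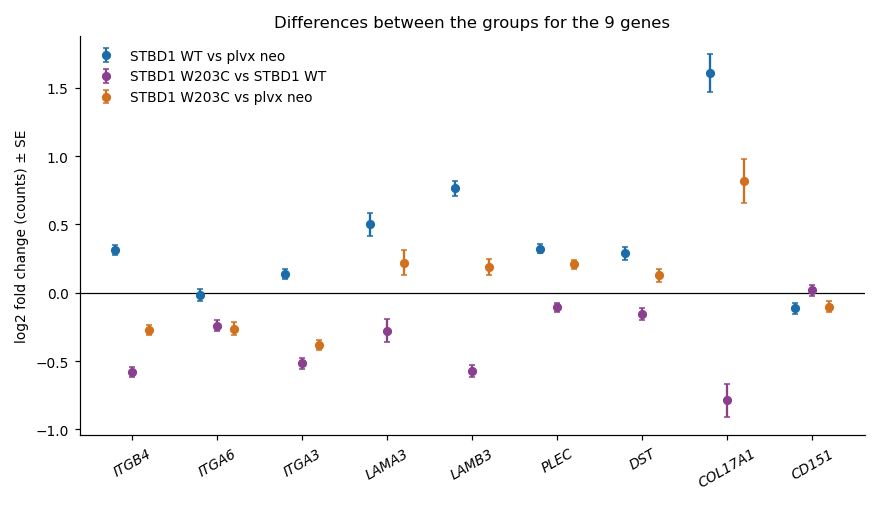
Log2 fold change of the counts with its SE for the 9 genes in each of the 3 comparisons. The laminin chains, the plakins and COL17A1 lay above 0 against plvx neo in both constructs (from 0.13 to 1.61), while ITGB4, ITGA6 and ITGA3 lay below 0 in STBD1 W203C against plvx neo (from −0.38 to −0.26). In that last comparison LAMA3, LAMB3 and DST were not called.

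Counted together, all 9 genes passed the filter on low counts in each comparison. Between libraries labelled STBD1 WT and plvx neo, 7 were called higher and 1 lower, where 27.8% of the 15289 genes tested were called (13.9% higher and 13.9% lower). Between the constructs, 8 were called lower and CD151 was not called, against 27.9% of 15052 genes (13.4% lower). Between libraries labelled STBD1 W203C and plvx neo, 2 were called higher (PLEC and COL17A1) and 3 lower (ITGB4, ITGA6 and ITGA3), against 5.7% of 15081 genes (3.03% higher and 2.67% lower). In CPM the groups did not overlap for 8, 8 and 7 of the 9 genes in these comparisons, as was so for 40.0%, 41.1% and 23.6% of all genes tested. The median log2 fold change of the 9 genes was 0.31, −0.28 and 0.13, and that of all genes tested was 0.01, −0.01 and 0.00. With limma on log2(TPM + 1), 5, 4 and 1 of the 9 genes were called, and ITGA3 was the 1 gene called between libraries labelled STBD1 W203C and plvx neo. The share of all genes that limma called was not counted. As the genes were listed with the values of these groups known, nothing is read from these counts. The comparisons share libraries pairwise.

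The size of several of these differences depended on a joint correction for GC content and length, whose parts were not separated. Over their transcripts, PLEC, ITGB4 and CD151 were rich in G and C (a GC fraction of 0.67, 0.63 and 0.63), as were LAMB3 and ITGA3 (0.59 each), whereas DST, ITGA6 and LAMA3 were poorer (0.42, 0.42 and 0.46) and COL17A1 lay between (0.51). PLEC was also the longest, at a mean of 12906 bases. When a smooth trend of the fold changes with GC content and length over all genes was removed, the difference between STBD1 WT and plvx neo became 0.14 for ITGB4, 0.01 for ITGA3, 0.10 for PLEC and −0.27 for CD151, so that ITGA3 was no longer called. LAMB3, which moved about as far as ITGA3, came to 0.64, and LAMA3 (0.48), DST (0.29) and COL17A1 (1.57) moved less. Between the constructs, PLEC turned to 0.08 and was not called, and CD151 was called higher at 0.14, whereas ITGB4 (−0.44), ITGA3 (−0.40) and LAMB3 (−0.46) stayed lower, leaving 7 of the 9 genes lower and 1 higher. In STBD1 W203C against plvx neo the correction moved the 9 genes by 0.04 or less, and 8 of 9 were called, 4 in each direction, where 6.97% of all genes were called (617 higher and 434 lower). Over all genes the correction changed the calls for STBD1 WT against plvx neo from 2128 higher and 2126 lower to 1623 and 3325, and between the constructs from 2178 higher and 2024 lower to 3293 and 1447.

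**Figure D3:**
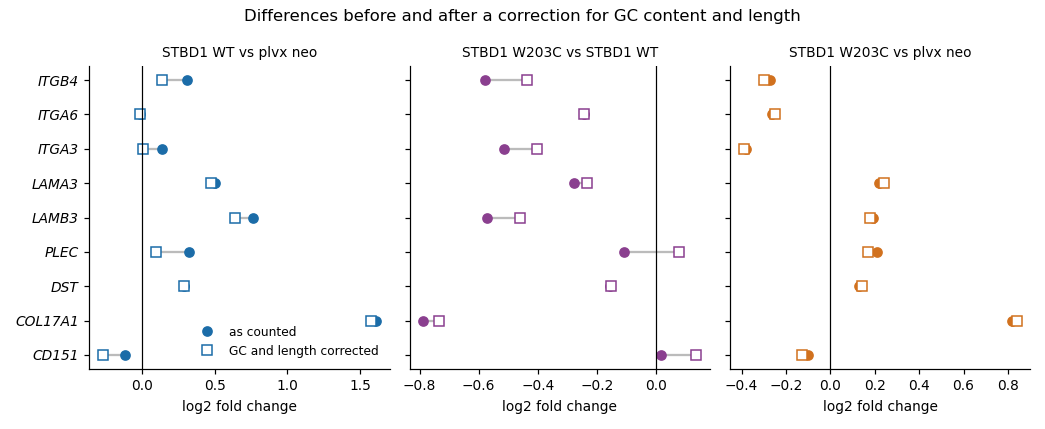
Log2 fold change of the 9 genes as counted (filled circles) and after removing the trend with GC content and length over all genes (open squares), for each comparison. PLEC, ITGB4 and CD151 moved most, by up to 0.23, 0.17 and 0.15, and ITGA6 and DST least, by up to 0.01 and 0.02.

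The mean transcript length of the genes was compared between each pair of groups. The expected counts alone do not fix this length, but TPM depends on it. As both were known when the genes were chosen, the length is not a measure independent of that choice. Of the 27 combinations of gene and pair, 2 did not overlap. The share over all genes was not counted, so nothing is read from this count. ITGA3 was assigned 4097 ± 67 bases in libraries labelled STBD1 W203C and 3958 ± 24 in those labelled STBD1 WT, and DST 5313 ± 335 and 5672 ± 94 bases. Both had the smallest p that 3 against 3 libraries allow (p = 0.1, two-sided exact permutation test, adjusted p = 0.853 over the 27), so this test could not have called a difference at this number of libraries, and its p says nothing for or against one. Over the 9 libraries the coefficient of variation of the mean length was highest for COL17A1 (13.96%) and LAMA3 (8.03%) and lowest for ITGA3 (2.12%), which enters the spread of their TPM.

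Laminin, collagen IV and other partners of the 9 genes were taken from 8 lists of related genes, 92 in all, of which 75 were tested. In libraries labelled STBD1 WT against plvx neo, 30 were higher and 9 lower (52.0% called, against 27.8% of all genes, and a median of 0.11 against 0.01). After the GC and length correction the split was 22 higher and 16 lower, where all genes had 1623 higher and 3325 lower. The laminin chains were higher for 6 of 8 tested with and without the correction. LAMB2, the β2 chain, was among those with the largest differences (0.58, SE 0.044, adjusted p = 6.31e-09, edgeR). The basement membrane list was higher for 6 of 8. COL4A6 and COL4A5, the paired α6 and α5 chains of collagen IV, differed by 0.89 (SE 0.15, adjusted p = 0.000137) and 0.79 (SE 0.063, adjusted p = 1.24e-08), and HSPG2, which encodes perlecan, by 0.76 (SE 0.049, adjusted p = 7.59e-10).

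Other related genes rose in the same comparison. The tetraspanin CD82 was higher by 0.61 (SE 0.093, adjusted p = 6.07e-05), the membrane-type matrix metalloproteinase MMP14 by 0.59 (SE 0.073, adjusted p = 5e-06) and ITGA2, the α chain of a collagen and laminin receptor, by 0.57 (SE 0.062, adjusted p = 1.12e-06). Of the 13 integrin chains tested, 5 were higher and 3 lower, and after the correction 2 and 3. The plakins and anchoring proteins were higher for 5 of 9 (2 higher and 1 lower after correction), the proteases higher for 3 and lower for 1 of 6, and the tetraspanins higher for 2 of 5 (2 higher and 2 lower after correction). Among 14 focal adhesion linkers 2 were higher and 3 lower (1 and 6 after correction), and among 12 receptors and kinases coupled to ITGB4 1 was higher and 2 lower.

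Between the constructs the related genes were mostly lower in libraries labelled STBD1 W203C. Of the 75 tested, 33 were lower and 5 higher (50.7% called, against 27.9% of all genes, with 13.4% lower and 14.5% higher, and a median of −0.12 against −0.01), and after the correction 25 were lower and 11 higher. ITGA2 was lower by 0.66 (log2 fold change −0.66, SE 0.065, adjusted p = 2.03e-07, edgeR), HSPG2 was at −0.60 (SE 0.058, adjusted p = 1.88e-07), COL4A5 at −0.60 (SE 0.063, adjusted p = 6.44e-07) and CD82 at −0.56 (SE 0.094, adjusted p = 0.000123). COL4A6 was at −0.55 (SE 0.15, adjusted p = 0.00675), and BCAM, which encodes a receptor for the laminin α5 chain, at −0.46 (SE 0.062, adjusted p = 1.15e-05). COL4A3 was at −0.46 (SE 0.13, adjusted p = 0.0128), a call lost with DESeq2 (adjusted p = 0.0566) and without STBD1 WT replicate 1 (−0.40), STBD1 WT replicate 3 (−0.39) or STBD1 W203C replicate 1 (−0.40). By list, 7 of 8 basement membrane genes, 5 of 13 integrin chains, 2 of 6 proteases and 2 of 5 tetraspanins were called, each of them lower. Both directions were present among the laminin chains (6 lower and 1 higher of 8), the plakins and anchoring proteins (5 and 1 of 9), the focal adhesion linkers (3 and 2 of 14) and the receptors and kinases (3 and 1 of 12). After the correction the focal adhesion linkers turned to 2 lower and 6 higher, the receptors and kinases to 2 and 2, and the plakins and anchoring proteins to 3 and 2. All genes likewise turned to 1447 lower and 3293 higher after the correction, so nothing is read from these turns by list.

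Against plvx neo, the related genes differed less often in libraries labelled STBD1 W203C, a contrast between comparisons that was not tested. Of the 75, 3 were higher and 10 lower (17.3% called, against 5.7% of all genes, and a median of −0.03 against 0.00), and 4 were higher and 8 lower after the correction. All genes then had 617 higher and 434 lower. None of the 8 laminin chains was called by edgeR, DESeq2 or limma, with 3, 1 and 2 of them at an unadjusted p under 0.05. FYN, a kinase of the SRC family, was lower at −0.44 (SE 0.095, adjusted p = 0.0056), ITGB5, the β5 integrin chain, at −0.39 (SE 0.055, adjusted p = 6e-05) and PXN, which encodes paxillin, at −0.22 (SE 0.037, adjusted p = 0.000535). MMP14 was higher at 0.34 (SE 0.079, adjusted p = 0.00957). FRAS1 (−0.22, adjusted p = 0.0292), PPL, which encodes periplakin (−0.21, adjusted p = 0.0214), PRKCA (−0.21, adjusted p = 0.0496) and ILK (0.19, adjusted p = 0.0217) were also called. Over the 3 comparisons, limma on log2(TPM + 1) called 15, 11 and 0 of the related genes (11 in the last had an unadjusted p under 0.05). Its share over all genes was not counted. The call of FRAS1 was lost on leaving out any library but plvx neo replicate 1 (between −0.25 and −0.12), and that of PRKCA on leaving out any but STBD1 W203C replicate 1 (between −0.21 and −0.15). With DESeq2, FRAS1 (adjusted p = 0.0555) and PRKCA (adjusted p = 0.129) also lost their calls. In edgeR, PRKCA lost its call with median-of-ratios size factors (adjusted p = 0.0523) and with the GC and length correction (adjusted p = 0.0537). That of PPL was lost without plvx neo replicate 1 or 3 or STBD1 W203C replicate 2 or 3 (between −0.21 and −0.16), and that of ILK without plvx neo replicate 1 or 3 or STBD1 W203C replicate 1 or 2 (between 0.17 and 0.21).

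**Figure D4:**
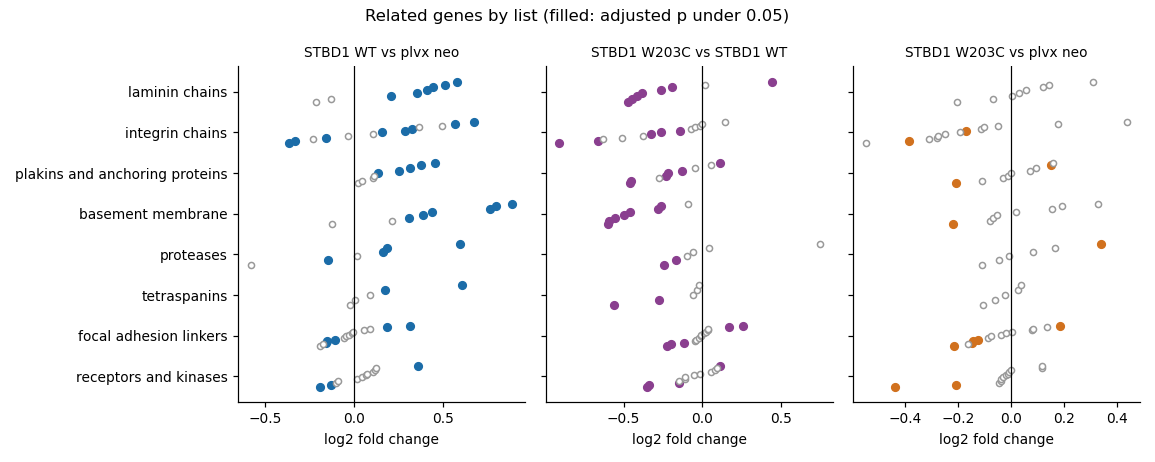
Log2 fold change of each related gene tested, by list, in the 3 comparisons (filled points have an adjusted p under 0.05 by edgeR). The laminin chains and basement membrane genes called were all above 0 in STBD1 WT against plvx neo, and between the constructs all of them were below 0 except 1 laminin chain at 0.44, LAMA2.

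The genes whose log2 CPM followed ITGB4 most closely over the 9 libraries were ALDOC (r = 0.989), ACTG1 (0.985), ACSS2 (0.985), NDRG1 (0.983) and ANXA6 (0.983), among 11317 genes that averaged 5 CPM or more. Of the listed genes, ITGA3 was the most alike (r = 0.940, rank 73), followed by ITGA6 (0.746, rank 1141) and LAMB3 (0.743, rank 1150), and CD151 was the least alike (−0.03, rank 5552). These correlations describe 9 libraries in 3 groups that share their group differences and their base composition, and no p is given.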

How the data were processed

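According to the study's methods, total RNA of the HCT116 lines was extracted with TRIzol and sequenced as paired-end libraries (NEBNext Ultra kit), reads were cleaned and aligned to hg38 with STAR 2.7.1a, and genes were quantified with RSEM 1.3.1 on Ensembl gene models. The authors deposited, per library, an expected count (RSEM's estimated count, not normalized), TPM, and a mean and effective transcript length per gene in bases. These tables name genes by Ensembl identifier, and 98.9% of the 58395 were given a symbol through GENCODE 44 and the reference name tables. Gene positions are from GENCODE 44 on hg38.

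Expected counts were rounded and filtered with filterByExpr, and each pair of groups was fitted with the quasi-likelihood test of edgeR 4.0.16 (TMM factors, R 4.3.3). A gene was called at a Benjamini-Hochberg adjusted p under 0.05 over all genes tested. Log2 fold changes are from these counts, and levels between genes are compared in TPM. The SE was taken from the fold change and its F statistic. With 3 libraries in a group, p-values measure the spread between these libraries. On simulated counts with 200 genes changed, between 95 and 97 of 100 genes changed 1.5-fold and between 99 and 100 of 100 changed 2-fold were recovered. The changed genes were drawn from well-counted genes, and all genes had the same spread between libraries. No trend with GC content or length and no smaller folds were simulated, so the recovery does not carry over to these.

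The 9 genes, the 92 related genes and the marker lists were chosen with earlier results of these data known. The text names the 9 genes, ITGB1, STBD1 and FAM47E-STBD1, for each comparison the 8 related genes that averaged 5 CPM or more and had the largest called difference, and the 5 genes most alike to ITGB4. A gene that this rule also names is not reported here. LAMA2, GALK1 and POLR2L were named after their values were seen. Mean transcript lengths were compared by two-sided exact permutation tests (scipy 1.17.1). The alternatives were DESeq2 1.42.0, median-of-ratios size factors, no filter, all 9 libraries in one fit, the replicate number as a block, a GC and length correction, both together, limma 3.58.1 on log2(TPM + 1) and leaving out each library.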

Additional observations from a re-analysis of the deposited data

How the results depend on the processing

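With limma on log2(TPM + 1), which divides by the estimated lengths, 5, 4 and 1 of the 9 genes were called in STBD1 WT against plvx neo, STBD1 W203C against STBD1 WT and STBD1 W203C against plvx neo, in place of 8, 8 and 5, and 15, 11 and 0 of the related genes in place of 39, 38 and 13 (by limma, 11 of them had an unadjusted p under 0.05 in the last comparison). The cause was not tested. Among the alternatives, the share of all genes called was counted only for the GC and length correction. The other counts in this section therefore do not show whether fewer calls are particular to these genes. The GC and length correction gave 8 of 9 genes for STBD1 W203C against plvx neo. Leaving out 1 library gave between 6 and 8, between 5 and 8 and between 5 and 6 of the 9 genes and between 33 and 37, between 28 and 32 and between 6 and 11 of the related genes. The 5 of 9 between the constructs came without STBD1 WT replicate 3. For STBD1 W203C against plvx neo, 6 related genes were called without plvx neo replicate 3, 7 without STBD1 W203C replicate 1 and 6 without STBD1 W203C replicate 2.

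Directions that turned were all of differences not called, except PLEC between the constructs (0.0796 with the GC and length correction and 0.0787 with the replicate block added to it). On log2(TPM + 1), ITGA6 in STBD1 WT against plvx neo was at 0.0287 and, between the constructs, CD151 was at −0.0062 and ITGB1 at 0.0499. DESeq2 gave 0.0033 for ITGB1. Leaving out 1 library gave between −0.048 and 0.0319 for ITGA6, between −0.0181 and 0.0445 for CD151 and between −0.0295 and 0.0213 for ITGB1 in these comparisons. Of the mean lengths, between 2 and 8 of the 27 combinations did not overlap when 1 library was left out (8 without plvx neo replicate 2, 5 without STBD1 W203C replicate 2, 4 each without plvx neo replicate 3, STBD1 WT replicate 1 and STBD1 WT replicate 2), where fewer libraries overlap less easily, and 3 with effective lengths. For lengths the share over all genes was not counted, so nothing is read from these counts.

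The deviations of libraries with the same replicate number were hardly correlated (r between −0.01 and 0.08, mean 0.0157). The mean r of differently numbered libraries was −0.0078. These values show little shared deviation by number but cannot decide whether the libraries were paired. The replicate block gave 8, 7 and 6 of the 9 genes and 41, 32 and 15 of the related genes in the 3 comparisons. Depth limits COL17A1 most, with between 61 and 259 counts.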
